A study of Marchantia polymorpha with 6 samples.

Results

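The male sex chromosome V of the liverwort Marchantia polymorpha carried 10 protein-coding genes whose introns held more transposable-element sequence than those of any other annotated gene. They were chosen by that quantity alone, the bases of intron covered by annotated elements, and are 10 of 146 genes on V and of 19441 genes in the whole annotation. The series concerned the loss of MpMET, a liverwort gene for the kind of methyltransferase that keeps up CG methylation in plants. Its 6 RNA-seq libraries were made from 14-day thalli, as the leaf-like body of the haploid plant is called, with 3 libraries of the male line Tak-1 as wild type and 3 of the mutant Mpmet-3. The lesion in Mpmet-3 is not stated in the labels. The files used here were the Tak-1 annotations of genes and of elements, which give positions and no library values, so the depth of the libraries is unknown and expression of the 10 genes in Mpmet-3 against Tak-1 was not analysed here. Every value below describes 1 annotated genome, MpTak1 v5.1 revision 2, and has no replicate error and no test. Positions are counted from 1.

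In the haploid generation of Marchantia, males carry V and females carry U, and much of V does not recombine. LTR retrotransposons, which copy themselves through RNA, consist of an internal part between 2 long terminal repeats, and plant genomes hold many of the superfamilies called Gypsy and Copia. DNA transposons move without an RNA copy. In Arabidopsis, elements inside introns are often methylated like elements elsewhere, and proteins such as IBM2 and EDM2 are needed for full-length transcripts of some genes with such introns. Whether the liverwort genes depend on similar factors is not addressed by annotations. No symbol or product was paired with the 10 genes, so they are named by identifier.

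MpVg00525, at 2676294 to 3097587 on the minus strand, held 248 kb of element sequence in its introns. MpVg00615, at 3464430 to 3966228 on the plus strand, held 241 kb, and MpVg01095, at 5471720 to 5958331 on the plus strand, held 227 kb. MpVg00105, at 671103 to 987551 on the plus strand, held 157 kb. These 4 genes together had 77.1% of the intronic element bases of the 10. MpVg00785 followed at 4449442 to 4631539 on the plus strand with 72.3 kb. MpVg00928, at 4929059 to 5033869 on the plus strand, held 49.3 kb, and MpVg00045, at 219140 to 315728 on the minus strand, held 37.4 kb. MpVg00985 lay at 5205609 to 5316677 on the minus strand with 36.0 kb, and MpVg00410 at 1899257 to 1997696 on the plus strand with 34.0 kb. The last member, MpVg00265, at 1372377 to 1469259 on the plus strand, held 29.9 kb. Just outside the list came MpVg00310 with 24.2 kb, MpVg00160 with 24.1 kb and MpVg00710 with 20.2 kb, all on V. The autosomal coding genes with most were Mp6g01200 with 10.4 kb, Mp2g19550 with 10.3 kb and Mp5g14360 with 8.69 kb.

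All 10 genes were very long, as the choice by intronic bases favours. Their spans ran from 96.6 kb in MpVg00045 to 502 kb in MpVg00615, and the longest autosomal coding gene spanned 39.2 kb. Side by side the spans took up 2.416 Mb, or 32.0% of the 7.54 Mb of V to its last annotated feature. Exons made up 34697 bp of this, or 1.44%. The introns summed to 2381 kb, of which elements covered 1133 kb, or 47.6%, which is 24.3% of all element bases on V. By the share of intron covered, as distinct from the amount, the 10 were less extreme. MpVg00525 was highest with 59.3%, followed by MpVg00105 with 50.3%, and the other 8 lay between 31.3% in MpVg00265 and 48.3%. These shares placed the 10 between rank 489 and rank 699 among the annotated genes that have introns.

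**Figure D1:**
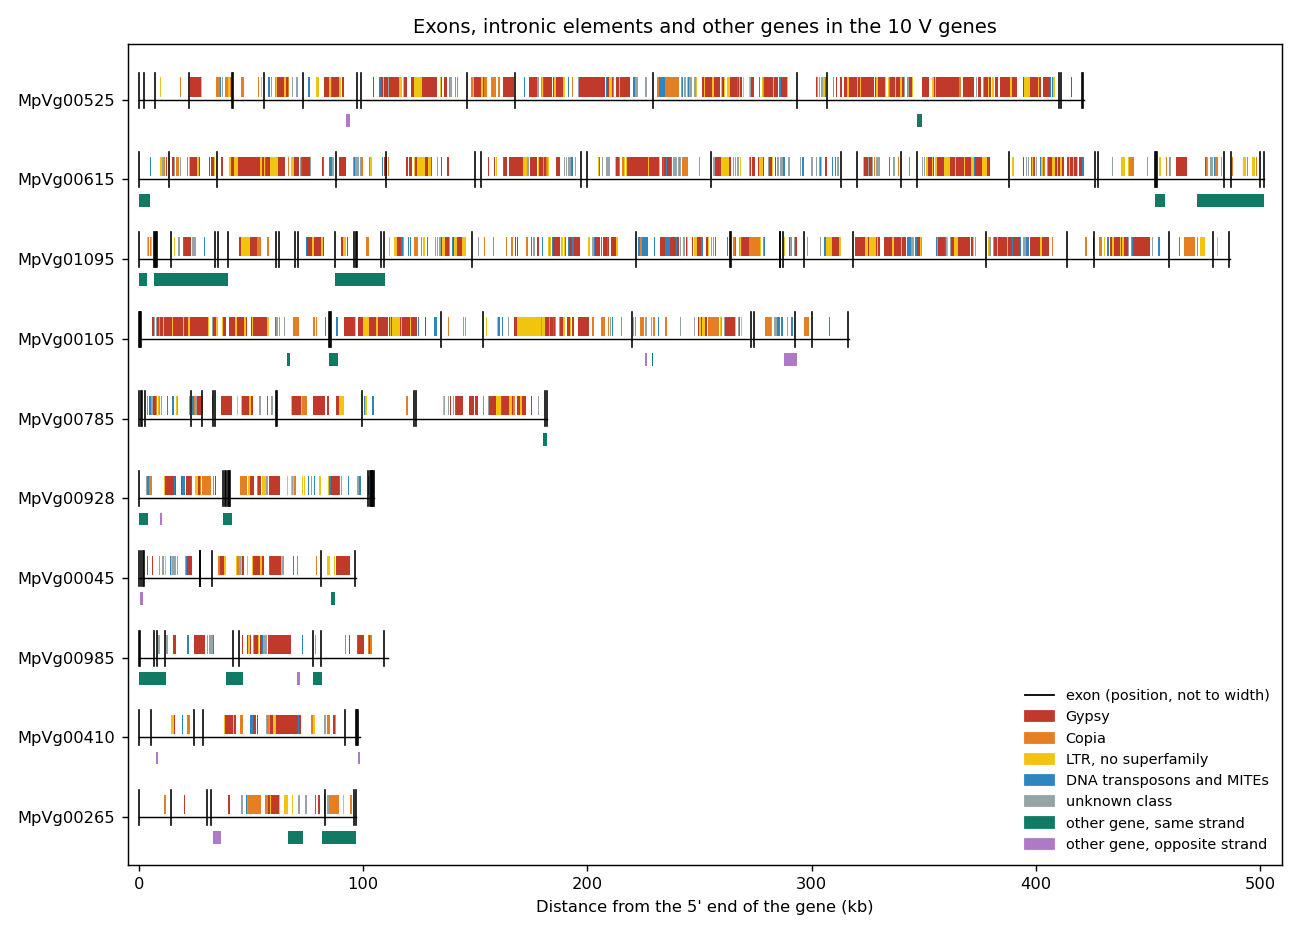
Map of the 10 genes, each drawn to scale from its 5′ end in kb, with exons as black ticks, intronic elements coloured by class above the line and other annotated genes below it. Gypsy elements (red) occur in every gene, the 4 longest genes span 316 kb or more, and every gene overlaps at least 1 other annotated gene.

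The coding sequences of the 10 genes were not long for their spans. Their longest coding sequences ran from 420 bp in MpVg00045 to 4779 bp in MpVg01095, with a median of 1302 bp, beside medians of 957 bp over 18134 autosomal coding genes and 453 bp over the 83 other coding genes of V. Among these 83 are 27 that lie in or overlap the spans of the 10, some sharing exons with them. They were not left out of the comparisons in this paragraph. Every annotated coding sequence of the 10 was a whole number of codons. Exon sequence had a median of 3355.5 bp per gene, against 2043 bp on the autosomes and 1793 bp in the other V genes. The number of exons stood further apart, with a median of 14.5 merged exons per gene against 3 and 2. Genes without introns count in both comparison groups but could not be among the 10, so the choice favours this difference. More than 1 transcript was annotated for 6 of the 10 genes, for 26.5% of the other V coding genes and for 16.6% of the autosomal coding genes.

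MpVg01095 had the most exons, 34 in its single transcript. The coding sequence of 4779 bp, or 1593 codons with the stop, ran through 32 of them, after 2 exons of 5′ untranslated sequence (5′ UTR). Its introns alternated between short and long along the gene. The first 5 were between 134 and 6464 bp, the 6th reached 19.4 kb and the 9th 21.4 kb, and the run from the 19th to the 21st was 39.2 kb, 73.1 kb and 41.5 kb long. A stretch of introns of 184 bp, 21.7 kb, 234 bp and 210 bp followed, and then introns 27 to 32 of 11.8 to 59.0 kb. The longest intron held 15.2% of the intron sequence of the gene. The share in elements was highest in the 28th intron, at 71.0%, and was 40.6% in the longest.

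MpVg00525 had 2 transcripts of very different reach. The longer one spanned the whole 421 kb with 18 exons, all of them partly or wholly coding, for 1821 bp of coding sequence, so that all 17 introns lay within coding sequence. The shorter one ended after 3 exons and 7.70 kb and held 357 bp of coding sequence. In the longer transcript the 9th intron was 46.9 kb, the 11th 61.4 kb, the 12th 64.1 kb and the 14th 103 kb. The 14th was the longest intron of the 10 genes and held the largest covered share of any of the introns of 20 kb and over, 76.4%. In contrast, the second intron was 20.1 kb long with 5.90% in elements. The first intron of 1353 bp and the last of 523 bp held none.

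MpVg00615 combined the longest span with a short coding sequence. Its main transcript had 23 exons, and the 1122 bp of coding sequence lay in 12 of them. The first 4 exons were wholly 5′ UTR and the last 7 wholly 3′ UTR. The 4 introns of the 5′ UTR, of 34.1 kb, 53.0 kb, 22.4 kb and 39.3 kb, made up 29.8% of the intron sequence, and the 7 introns of the 3′ UTR made up 14.7%. The longest intron, the 9th, was 58.1 kb and interrupted coding sequence. A second transcript joined 2 exons over 13.7 kb and encoded 612 bp, and both of its exons were coding. In the main transcript, 148704 bp of intron precede the first coding exon.

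MpVg00105 had 2 transcripts of 14 exons that shared their first 12 introns and ended in different last exons. The coding lengths were 2187 bp and 2121 bp, and no intron lay in a UTR. The introns fell into separate sizes. Introns 1, 2 and 3 were 278 bp, 88 bp and 324 bp, the 4th was 83.5 kb, introns 5 and 6 were 420 bp and 365 bp, and introns 7 to 10 were between 18.7 and 66.0 kb. The 8th intron, at 18.7 kb, had only 7.4% in elements, while its neighbours had 69.9% and 54.6%. The last intron was 22.8 kb in one transcript and 6.86 kb in the other.

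MpVg00785 had 3 transcripts. The fullest spanned 182 kb with 11 exons and 1017 bp of coding sequence, in 9 of its exons. Its first 2 introns, in the 5′ UTR, were 562 bp and 156 bp, and its long introns were the 4th with 58.5 kb, the 6th with 37.9 kb, the 7th with 23.0 kb and the 9th with 57.0 kb. A transcript of 7 exons ended after 34.1 kb with 480 bp of coding sequence. The third transcript consisted of 2 exons over 5.13 kb with 279 bp of coding sequence, and its 3695 bp of exon held 2359 bp of 5′ UTR and 1057 bp of 3′ UTR.

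In MpVg00928, 2 introns held nearly all of the length. The first intron, in the 5′ UTR, was 36.9 kb, the 7th was 61.2 kb, and the other 11 were between 98 and 946 bp. The gene had 14 exons and 1938 bp of coding sequence. The 8th intron, of 698 bp, was the only one under 1 kb in the 10 genes that held any element, with 50.7% of its bases covered. MpVg00410 had 8 exons, all at least partly coding, and 1443 bp of coding sequence. Its 4th intron of 63.2 kb held 66.1% of its intron sequence and its last 2 introns were 206 bp and 162 bp. MpVg00265 had 6 exons and 783 bp of coding sequence in its fullest transcript, with a 4th intron of 63.5 kb, and a second transcript of 3 exons encoded 249 bp. Its first 2 introns were 13.7 kb and 16.0 kb but held only 8.2% and 2.6% of element sequence.

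MpVg00045 and MpVg00985 carried long 5′ UTR introns. MpVg00045 had 9 exons, of which the first 5 were wholly 5′ UTR, and its coding sequence of 420 bp lay in the last 4. Its introns 4, 7 and 8 were 24.5 kb, 48.6 kb and 14.9 kb, and the first 3 were all under 1 kb. MpVg00985 was the only one of the 10 whose coding sequence was not interrupted in its fullest transcript. All 1161 bp of it lay in the last exon of both transcripts, and the 9 introns of the fuller transcript, up to 32.5 kb long, all lay in the 5′ UTR. In this gene the whole 107 kb of intron therefore preceded the start of the coding sequence.

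**Figure D2:**
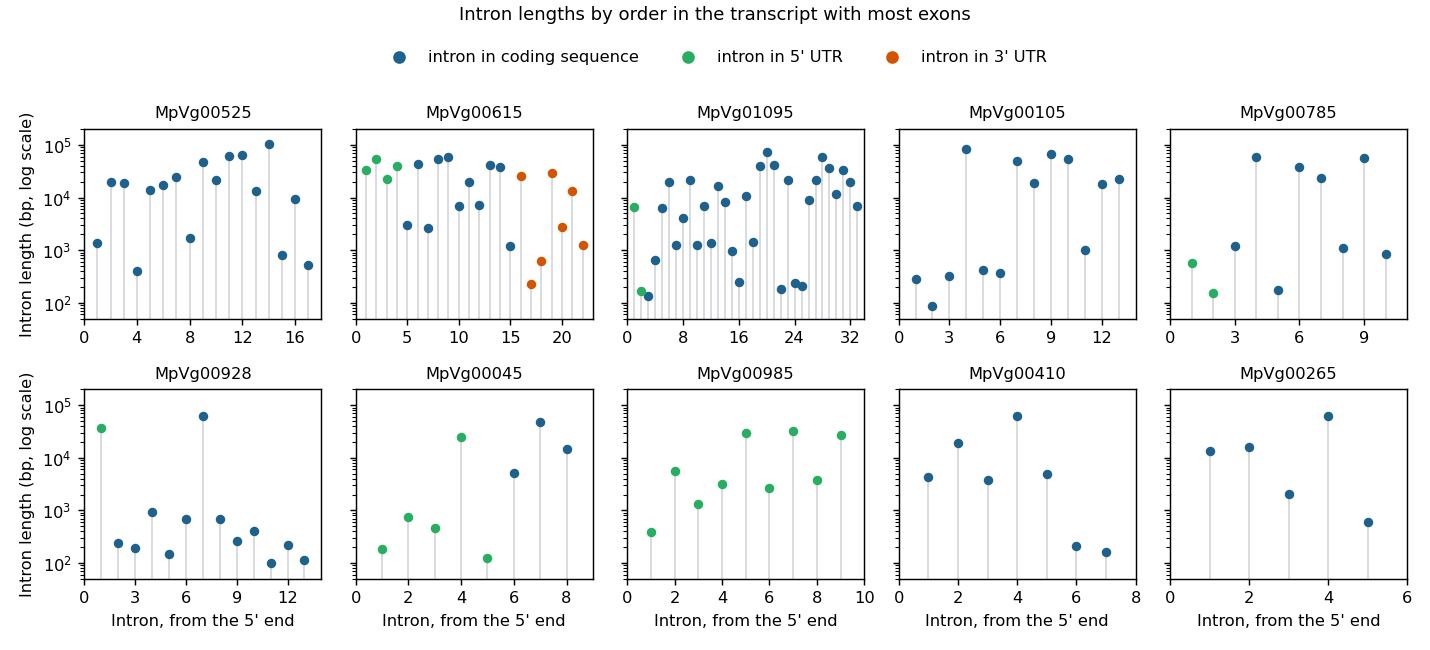
Length of each intron in bp on a log scale, by order from the 5′ end, in the transcript with most exons of each of the 10 genes, coloured by whether the intron interrupts coding sequence or a UTR. Lengths run from 88 bp to 103 kb, and introns under 1 kb stand next to introns over 10 kb within 1 gene.

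The 137 introns of these fullest transcripts differed widely in length. The shortest was 88 bp, the median 6770 bp and the longest 103 kb. The longest intron of any autosomal coding gene, counted outside the exons of all its transcripts, was 13.8 kb, and 57 of the 137 exceeded it. The longest autosomal intron within a single transcript was not computed. The 62 introns over 10 kb held 93.9% of the intron sequence, and 16 exceeded 50 kb. Elements were almost absent from the short introns. Of 41 introns under 1 kb, 40 held none, and of 23 introns of 1 to 5 kb, 19 held none. Of 28 introns of 5 to 20 kb, 3 held none, and elements covered 26.97% of their bases. All 45 introns of 20 kb and over held elements, which covered 52.7% of their bases, from 5.90% to 76.4%. These 45 made up 82.4% of all intron sequence.

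Most introns interrupted coding sequence. The 107 coding introns held 83.3% of the intron bases, with 48.9% of their sequence in elements. The 23 introns of 5′ UTRs, from 6 genes, held 13.7% of the bases and were covered to 42.5%, and the 7 of the 3′ UTR of MpVg00615 held 3.06% and were covered to 30.4%. Intron phase tells where an intron cuts the reading frame, with phase 0 between codons and phases 1 and 2 after the first and second base of a codon. Of the 107 coding introns 61.7% were in phase 0, 14.0% in phase 1 and 24.3% in phase 2. In first listed transcripts, the shares were 59.4%, 18.2% and 22.5% over 187 introns of the 83 other V coding genes. They were 57.4%, 20.8% and 21.8% over 70837 autosomal introns. The 83 include 27 genes that overlap the 10. Of the 83, 11 share introns with the 10, so the same intron can count on both sides.

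Element cover rose with distance from the exons. In the 65 introns of 10 kb and over (counted where all transcripts of a gene are intronic), elements covered 2.67% of the bases within 100 bp of an exon, 3.83% at 101 to 250 bp and 5.07% at 251 to 500 bp. The cover was 11.4% at 501 to 1000 bp, 22.1% at 1001 to 2500 bp, 31.2% at 2501 to 5000 bp, 46.0% at 5001 to 10000 bp and 69.8% beyond 10000 bp. The last value is near that of V outside genes, of which elements covered 73.9%. All 65 introns contribute in full up to 5000 bp, but only introns over 20 kb have bases beyond 10000 bp. Beyond 5000 bp the classes therefore mix distance with intron length. Between genes on V, the cover was already 50.4% within 100 bp of a gene and reached 78.8% beyond 10000 bp. Introns of the 56 V coding genes lying outside the 10 spans went from 6.12% within 100 bp to 56.1% at 5001 to 10000 bp. Beyond 10000 bp their value of 48.2% rests on 19.2 kb of sequence, of 428 kb in all. The low cover beside exons was seen in each of the 10 genes. Within 500 bp of an exon it was 0% in MpVg00785, MpVg00928, MpVg00045 and MpVg00410, from 2.56% to 4.47% in the 4 longest genes, 12.9% in MpVg00985 and 16.0% in MpVg00265. Farther into the same introns it was between 33.0% and 63.7%.

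The margin without elements had a median of 2188 bp after the exon before the intron and of 2310 bp ahead of the exon after it. In 3 of 65 introns an element began within 100 bp of the exon before, and in 2 an element ended within 100 bp of the exon after. The widest stretch without elements in any intron was 14.5 kb in MpVg00785. In the other 9 genes the widest was between 5.35 kb and 10.6 kb.

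**Figure D3:**
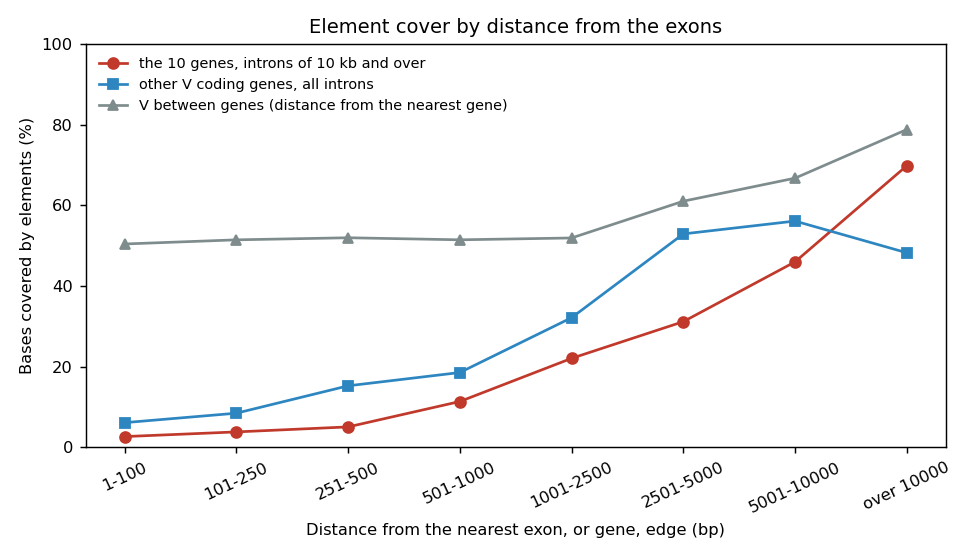
Share of bases covered by elements (%) against distance from the nearest exon edge, or for the grey line from the nearest gene, in bp classes. In the introns of 10 kb and over of the 10 genes (red) the share goes from 2.67% to 69.8%, below V between genes (grey) at every distance. The blue line gives all introns of other V coding genes outside the 10 spans.

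Gypsy elements made up 54.3% of the element bases in the 10 genes, with 587 copies. LTR elements placed in no superfamily held 18.4%, Copia elements 12.3% and elements of unknown class 9.94%. Among DNA transposons the CACTA group held 5.14% and the Mutator group 2.02%. A base claimed by several superfamilies counts in each. V outside genes had nearly the same share of Gypsy, 55.7%, and 23.4% of LTR elements of no superfamily, but 4.71% of Copia. The introns of the other V coding genes had 42.5% Copia and 25.4% Gypsy. In autosomal introns, where elements covered 3.75% of the bases, Gypsy held 5.70% of element bases and elements of unknown class 40.6%. Autosomal sequence outside genes had 53.6% Gypsy. The Gypsy share of the 10 genes was thus nearer to those of sequence outside genes, on V and on the autosomes, than to those of both other groups of introns, while their Copia share was near the 13.4% of autosomal introns.

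Within the 10 the Gypsy share ran from 39.8% in MpVg00928 to 67.2% in MpVg00985, with MpVg00265 apart at 23.2%. MpVg00265 instead had 45.9% Copia, in 14 copies, and its leading family was the Copia family TE_00000828 with 4.79 kb. Its longest copy, of 3893 bp, was also Copia, of family TE_00000654. MpVg00928 had the next highest Copia share, 22.2%.

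**Figure D4:**
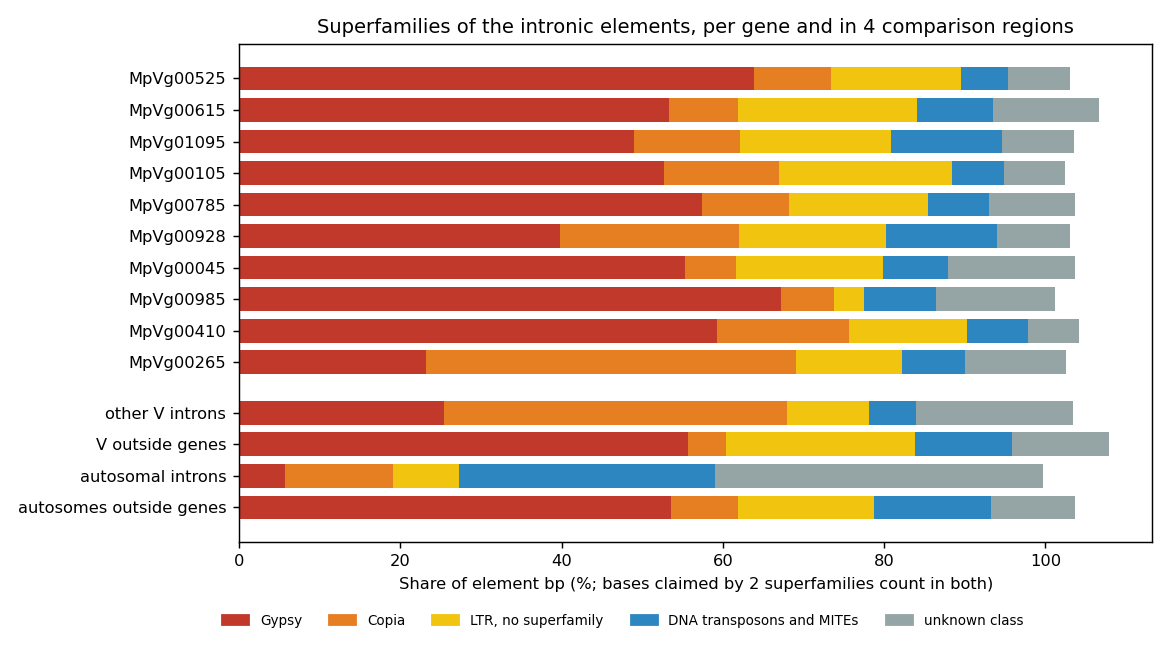
Share of intronic element bases (%) by class in each of the 10 genes and, below, in 4 comparison regions. Bars can exceed 100% where several superfamilies claim the same base. Gypsy (red) leads in 9 of the 10 genes and Copia (orange) in MpVg00265.

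The 1869 copies lying wholly in these introns belonged to 233 families, and 10 families held 50% of the element bases. A copy was short as a rule, with a median of 336 bp, close to the 327 bp of V outside genes. Of the families, 2 occurred in all 10 genes and 87 in a single gene. A structure-based copy without a family, such as that of 12064 bp in MpVg00105, was treated as a family of its own. Such copies can add to these counts. The Gypsy family TE_00001068 led with 115 copies and 158 kb, 13.9% of the element bases, all of it matching the terminal repeat. It was the leading family in 5 of the 10 genes, from 7.41 kb in MpVg00785 and 5.60 kb in MpVg00410 to 44.9 kb in MpVg00525. TE_00000846, an LTR family of no superfamily, was the other one present in all 10, with 96 copies and 46.6 kb. TE_00000762, a Gypsy family, had 45 copies and 88.7 kb in 8 genes. TE_00001110, also Gypsy and matched only by its internal part, had 56 copies and 87.5 kb in 9 genes and led in MpVg01095 with 31.7 kb and in MpVg00928 with 8.34 kb. TE_00001156, an LTR family of no superfamily, had 51 copies and 51.0 kb in 7 genes. TE_00000842, a Gypsy family, led in MpVg00045 with 6.05 kb, which is 1 copy, and in MpVg00985 with 5.62 kb in 2 copies.

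The 5 largest families also occurred in the rest of V. TE_00001068 held 14.8% of element bases in V outside genes against 13.9% in the 10 genes. For TE_00000762 the shares were 8.17% and 7.83%, and for TE_00000846 4.10% and 4.11%. TE_00001110 held less outside genes, 5.97% against 7.73%, as did TE_00001156, 2.38% against 4.50%. All 5 had autosomal copies too, from 541 of TE_00001110 to 4121 of TE_00001068. A few families, chosen here after their values were seen, had more bases in the 10 genes than in the larger space outside genes. The Gypsy family TE_00000859 had 24 copies and 24.5 kb in 5 of the genes but 5 copies and 6.89 kb in V outside genes. The Copia family TE_00000923 had 21.5 kb against 12.9 kb, and TE_00000828 had 19.2 kb against 7.48 kb. The annotation counts copies by sequence match, so pieces of 1 insertion can appear as several copies.

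Long copies were present. Taking the longest annotated copy of each family part in the genome as the measure, 11 of 44 terminal-repeat copies of TE_00000762 reached 90% of it. They lay in 7 of the genes and were 4733 to 4947 bp long. Of 56 copies of the internal part of TE_00001110, 18 in 5 genes reached 90%, at 2864 to 2978 bp. Of 51 terminal-repeat copies of TE_00001156, 2 in 2 genes did, at 3621 and 3652 bp. No copy of TE_00001068 or TE_00000846 did. The longest of TE_00001068 in the 10 genes came just short, with 3606 bp against 4054 bp for the longest in the genome. Copies that EDTA, the annotation pipeline, found by their structure numbered 10 in the 10 genes, of 34 on V, and held 4.49% of the element bases. The longest was an LTR element of no superfamily and no family in MpVg00105, 12064 bp at 839764 to 851827. A TE_00000762 copy of 9646 bp lay in MpVg00615 at 3508737 to 3518382. Copies of TE_00000842 of 6062 bp, 6053 bp and 5373 bp lay in MpVg01095, MpVg00045 and MpVg00410. The other 5 were CACTA copies of 2797 bp in MpVg00525 and 3921 bp in MpVg00615, and in MpVg01095 a Mutator copy of 4701 bp, with 2 overlapping short Mutator-related copies in MpVg00105. These 2, at 957476 to 957679 and 957477 to 957678, cover almost the same bases but count as separate copies.

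The elements lay on both strands in similar amounts. On the strand of the gene there were 925 copies with 538833 bp, and on the opposite strand 942 copies with 596253 bp, so that 47.5% of the stranded bases and 49.5% of the copies were on the same strand. Among copies shorter than 500 bp 49.5% of the bases were on the same strand, and 50.9% among those of 500 to 2000 bp. Among the 114 copies of 2000 bp and over it was 41.4%, with 50 on the same strand and 64 opposite. All 4 structure-based copies that carry a strand, those of TE_00000762 and TE_00000842, lay opposite to their gene. Of the 11 long copies of TE_00000762 named above 3 were on the same strand, and of the 18 of TE_00001110 there were 4. The 2 of TE_00001156 were both on the same strand. For Gypsy as a whole the share was 44.0%, for Copia 52.5% and for the CACTA group 64.2%. Of the 33050 bp of CACTA on the same strand, 13178 bp were in MpVg01095, with 24 copies on that strand and 5 opposite. The CACTA share of bases was 78.1% in autosomal introns and 5.72% in introns of other V genes, there with 1 copy against 3. By copies the order of the 10 genes and the autosomes was reversed, with 61.9% in the 10 genes (60 against 37) and 56.25% in autosomal introns (63 against 49). Copia in the 10 genes differed from autosomal introns, where 23.1% of its bases were on the strand of the gene. In the introns of other V genes 23.8% were.

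Most of the genes were near an even split. The same-strand share of bases ran from 40.9% in MpVg00785 to 50.3% in MpVg00615 in 8 genes. MpVg00265 had 62.4%, although fewer of its copies, 20 against 27, were on that strand. MpVg00985 stood apart with 86.2%, or 31.2 kb against 4.98 kb, and 43 copies against 15. Its Gypsy copies were 19 on the same strand and 4 opposite, with 22850 bp against 1320 bp. MpVg00985 is also the gene with all introns in its 5′ UTR.

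**Figure D5:**
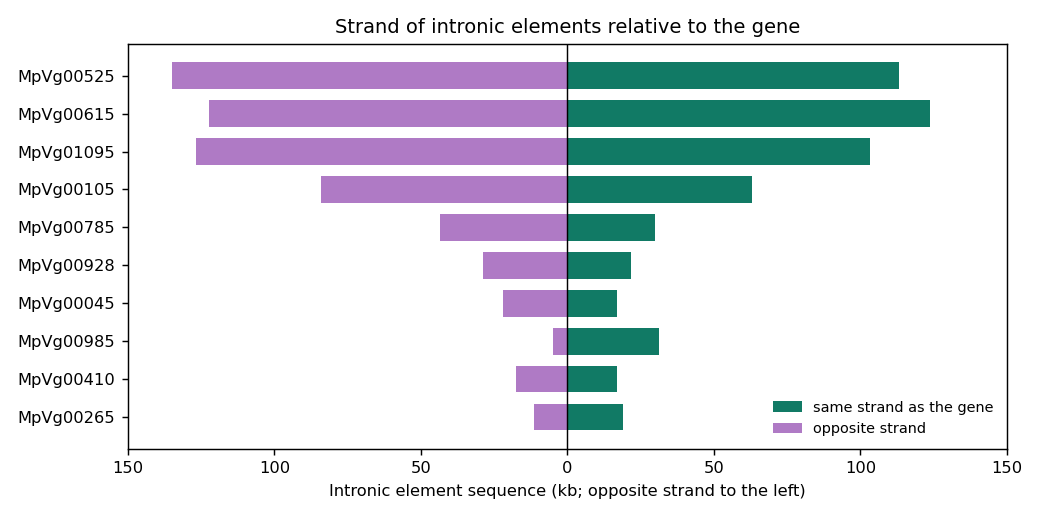
Intronic element sequence in kb on the strand of the gene (right) and on the opposite strand (left) for each of the 10 genes. The sides differ most in MpVg00985, with 31.2 kb on the same strand and 4.98 kb opposite, and MpVg00265 also has more on the same strand, with 19016 bp against 11466 bp.

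Elements were seldom annotated inside each other. Of the 1869 copies, 21 (1.12%) lay wholly inside a longer copy, in 6 genes, and the other 4 genes had none. The share was 2.84% when at least 90% of a copy had to lie inside. Of the 21, 10 lay inside structure-based copies, among them the Mutator-related copy of 202 bp annotated within that of 204 bp in MpVg00105. The CACTA copy of 3921 bp in MpVg00615 contained 4, among them 1532 bp of the internal part of TE_00000842 and 1141 bp of that of TE_00000859. The Mutator copy of 4701 bp in MpVg01095 contained 1014 bp of TE_00000828. An internal part of TE_00000563 with a TE_00001142 copy of 347 to 350 bp inside it recurred in MpVg00410, MpVg00785 and MpVg01095.

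A more frequent arrangement was 1 copy between 2 pieces of another family that lay on 1 strand, with gaps of at most 100 bp. There were 56 such cases, at least 1 in every gene and 13 in MpVg00525. Where 2 families alternate, cases overlap and each is counted, so the 56 are not all separate arrangements. An example is 2968187 to 2975084 and 2968299 to 2976195 in MpVg00525. Terminal-repeat pieces of TE_00001068 on both sides of an internal piece of TE_00000885 made up 10 of them, 5 of these in MpVg00525. These 10 were alike in size, 4100 to 4768 bp in all with an inner piece of 559 to 753 bp, and the inner piece lay on the other strand in all 10. The same arrangement occurred 14 times in V outside genes and 98 times on the autosomes, with a median size of 4672.5 bp there. In MpVg00615 the TE_00000762 copy of 9646 bp lay between pieces of TE_00001156, over 12209 bp in all. MpVg00525 and MpVg01095, with 13 and 12 cases, had the most, and MpVg00928, MpVg00410 and MpVg00265 had 1 each.

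Exons held little element sequence, and coding bases none. Of the 34697 bp of exon, 772 bp overlapped an element, and 0 of these were coding. In MpVg00785 all 594 bp lay in the short transcript of 2 exons and were matches to TE_00001028 and TE_00001097, LTR families of no superfamily. In MpVg00615 the 100 bp were the end of an exon of the 5′ UTR, covered by TE_00000272 of unknown class, which ran on into the intron. In MpVg00985 the 78 bp belonged to the fuller of the transcripts and to TE_00000120, also of unknown class.

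The 10 spans also took in or overlapped 28 other annotated genes, 27 of them coding, with 19 on the same strand and 9 on the opposite. Wholly inside the span of the host lay 25 of them. A gene wholly inside 1 intron was found in 7 of the 10 genes, against 0.951% of all coding genes, a share that favours long introns and so follows the choice of the 10. There were 11 such inner genes, 5 on the same strand and 6 on the opposite. They were MpVg00530 and MpVg00555 in MpVg00525, MpVg00110, MpVg00135a and MpVg00140 in MpVg00105, MpVg00940 in MpVg00928, MpVg00050 in MpVg00045, MpVg01010 in MpVg00985, MpVg00420 in MpVg00410, and MpVg00268 and MpVg00270 in MpVg00265. MpVg00530 had the longest coding sequence of these, 1380 bp in 1 exon. The only one without coding sequence, MpVg00135a, was a single exon of 619 bp that lay wholly in elements.

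Many of the same-strand neighbours had introns and exon bases in common with their host. Of the 19, 11 shared an intron with it, and 5 lay wholly inside 1 intron and shared no exon base. In the 11, the share of their exon bases in common with the host ran from 17.3% in MpVg00680 to 98.4% in MpVg01000. How such pairs of models arose was not tested. At least 1 intron with exactly the same first and last base was shared with another gene on the same strand by 7 of the 10 genes, against 0.640% of all coding genes and 13.3% of the other V coding genes, all 11 of which shared theirs with one of the 10. Over the 10 hosts 30 of 147 distinct introns (20.4%) were shared in this way, the longest of them 19387 bp. MpVg01100 had 7 of its 9 introns and 91.4% of its exon bases in common with MpVg01095, and MpVg01110 had all 5 introns and 88.0% in common with the same host. MpVg00950 shared 5 of 6 introns with MpVg00928, and MpVg01030 shared 4 of 5 with MpVg00985. The genes with no such partner were MpVg00525, MpVg00045 and MpVg00410.

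Where coding sequence of host and partner overlapped on the same strand, over 3484 bp, it was in the same reading frame at every base. A further 2089 bp of coding sequence of other genes lay in what the host annotation gives as UTR. In MpVg00985 this was 656 bp of MpVg01030, 329 bp of MpVg01020 and 227 bp of MpVg01000, all of it in exons before the coding exon of the host. In MpVg00615 it was 521 bp of MpVg00680 and 338 bp of MpVg00670, with 18 bp of MpVg00620. In all, 8022 bp of the 34697 bp of host exon (23.1%) also belonged to a gene on the same strand, and 1808 bp to a gene on the opposite strand. A read from the first of these lies in the exons of 2 annotated genes even when its strand is known. How the study assigned such reads was not analysed here.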

How the data were processed

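The deposited files were 2 GTF annotations of the Tak-1 genome, of genes (276543 rows) and of elements (89262 rows), whose positions are in bp. Per the file headers and names, the authors used EDTA for elements on MpTak1 v5.1 revision 2. The submitters' processing notes name Trim Galore and STAR without versions. Neither file gave library values, so the planned edgeR and DESeq2 comparison of Mpmet-3 with Tak-1 was not made.

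A gene was the span of its exons, and an intron any part of it outside the exons of all its transcripts. Intron order was read in the transcript with most exons. Overlapping elements were merged before bp were counted. Copies were called structure-based by their identifiers. The genes and families named follow a written rule: the 10 members, the next 3 on V, the first 3 on autosomes, genes inside introns of the 10, the 5 largest families and the leading family per gene. Other families and genes were named after their values were seen. The members and lists were chosen with earlier results of these data known. Interval steps were tested on simulated data. Python 3.11.15 was used with numpy 2.4.6, pandas 2.3.3 and matplotlib 3.10.9.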

Additional observations from a re-analysis of the deposited data

How the results depend on the processing

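No value here has a replicate, so any change counts as a move. The share of intron in elements, 47.6%, was 44.8% with elements of at least 200 bp, 43.1% without the unknown class, 44.1% as the median of the 10 genes, and 45.1% to 48.2% with each gene left out in turn, lowest without MpVg00525. The same-strand share of 47.5% was 49.5% by copies, 46.9% with elements of at least 500 bp, 46.7% for LTR elements and 46.2% to 48.2% with each gene left out, lowest without MpVg00985. With elements of at least 2000 bp, an alternative chosen after seeing the data, it was 41.4%. The Gypsy share of 54.3% was 56.2% with elements of at least 200 bp, 59.8% without the unknown class and 51.5% to 55.6% with each gene left out. The share of nested copies, 1.12%, was 2.84% when 90% of a copy had to lie inside, and 1.12% for copies inside another family. The longest intron held a median of 31.4% of the intron sequence of a gene, and 55.6% in the first listed transcripts, since some of these have few exons. The total of intronic elements, 1133 kb, ranged from 835 kb in first listed transcripts to 1187 kb without merging. The median coding length stayed at 1302 bp, and the exonic overlap of 772 bp was 594 bp without the unknown class.

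No paired analysis was possible because the files hold no library values, and the replicate block and DESeq2 alternatives planned for expression were not run. The gene models were not tested against reads, and shared sequence between copies means that copies are not independent.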
